A study of Rattus norvegicus with 8 samples.

Results

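The cadherin superfamily of H9c2 cells was described here, gene by gene, in cells given vehicle and in cells given oxidized phospholipid. Its 90 members were the protein-coding genes chosen by name from the 40994 rows of the deposited count table: the numbered cadherins (Cdh), the protocadherins (Pcdh), the Dachsous (Dchs), Fat and flamingo (Celsr) cadherins, the calsyntenins (Clstn) and the desmosomal cadherins (Dsc and Dsg). The group was proposed with the results of the same comparison known, among them the fall of Dchs2, so the calls and fold changes that follow are descriptions of these libraries. H9c2 is an established line of myoblasts from rat heart, and the labels record no genetic modification. The 4 vehicle libraries (numbered 1, 8, 15 and 22) came from cells given vehicle, and the 4 OxPAPC libraries (2, 9, 16 and 23) from cells given 100 µg/ml OxPAPC, an oxidized form of a phosphatidylcholine that carries arachidonic acid, for 6 h. All cells were at passage 6 and were plated in 96-well plates on the day before treatment, and all libraries carried 1 batch date. Nothing in the labels ties the libraries to separate cultures, so the p-values here measure the spread between these libraries, which may be technical.

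Cadherins are calcium-dependent adhesion proteins with repeated extracellular domains. Classical cadherins pair with the same cadherin on the neighbouring cell and are linked to actin through catenins, and M-cadherin (Cdh15) and N-cadherin (Cdh2) are the ones best known from myoblasts, whose contacts precede fusion. Fat and Dachsous cadherins are very large receptors and ligands for each other, flamingo cadherins organise planar polarity, and the clustered protocadherins are expressed from variable first exons in 3 neighbouring gene clusters and are best known from neurons.

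Messenger RNA was sequenced in bulk, and total counts were 15.4 to 21.7 M per library. Vehicle library 15 and OxPAPC library 23 stood apart from the rest of their groups: the chi-square statistic over genes, divided by its degrees of freedom, lay at 4.65 to 9.50 for within-group pairs that held either of them and at 2.23 to 3.73 for the others. Of the muscle regulators, Myog fell from 95.0 ± 5.67 to 39.9 ± 1.46 CPM with OxPAPC (SD, n = 4 each; log2 fold change -1.25 ± 0.05 SE, edgeR adjusted p = 3.08e-15). Myod1 rose from 85.8 ± 3.55 to 94.0 ± 3.85 CPM (SD, n = 4 each; log2 fold change 0.13 ± 0.04 SE, edgeR adjusted p = 0.0168), and Myf5 had 1 count in all. Of 9 tested genes of the muscle list, which includes Cdh15, 1 was higher and 4 were lower with OxPAPC, where 17.9% of all tested genes were called higher and 16.4% lower. The summed level of the list was 909.1 to 966.6 CPM with vehicle and 769.1 to 843.4 CPM with OxPAPC. The fibroblast list, led by collagen genes, summed to 87256 to 91587 CPM with vehicle and to 84327 to 89193 CPM with OxPAPC, with 0 genes higher and 2 of 6 tested lower, beside the same shares of all genes. Endothelial, neural and blood lists summed to at most 2.42 CPM in every library, with Cdh5, Kdr, Emcn, Rbfox3, Snap25, Sox10 and Ptprc at 0 counts. The epithelial list summed to 40.7 to 48.8 CPM, of which the keratin Krt8 made up nearly all, with Krt19 and Cldn4 at 0 counts. The part of any of these genes in the cadherin results was not tested.

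Counts were found for 72 of the 90 members, and 18 had no count in any library. A filter of about 10 counts in at least 4 libraries was passed by 39 members, and these were tested, in a fit of 13206 genes, by edgeR's quasi-likelihood test. With OxPAPC, 1 member was higher (Pcdh1) and 8 were lower (Dchs2, Cdh3, Celsr2, Pcdhb16l, Pcdhb14, Pcdhb2, Cdh11 and Pcdha4) at an adjusted p under 0.05. Of all 13206 tested genes, 17.9% were called higher and 16.4% lower, and 52.3% of these calls were upwards, against 40.2% with upper-quartile scaling factors. Without libraries 15 and 23, 1 member was higher and 7 were lower, all of them among the 8 above (Pcdhb2 was lost). The other 30 tested members were not called, and 9 members had an unadjusted p under 0.05. The vehicle and OxPAPC libraries did not overlap in 10 members, 1 above and 9 below, where 32.4% of all tested genes did not overlap; the member outside the calls was Pcdhb10. The median log2 fold change was -0.11 over the 39 tested members and 0.00 over all tested genes, and 27 of the 39 values were negative. In bulk RNA, fewer cells expressing a gene and less RNA per cell cannot be told apart.

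**Figure D1:**
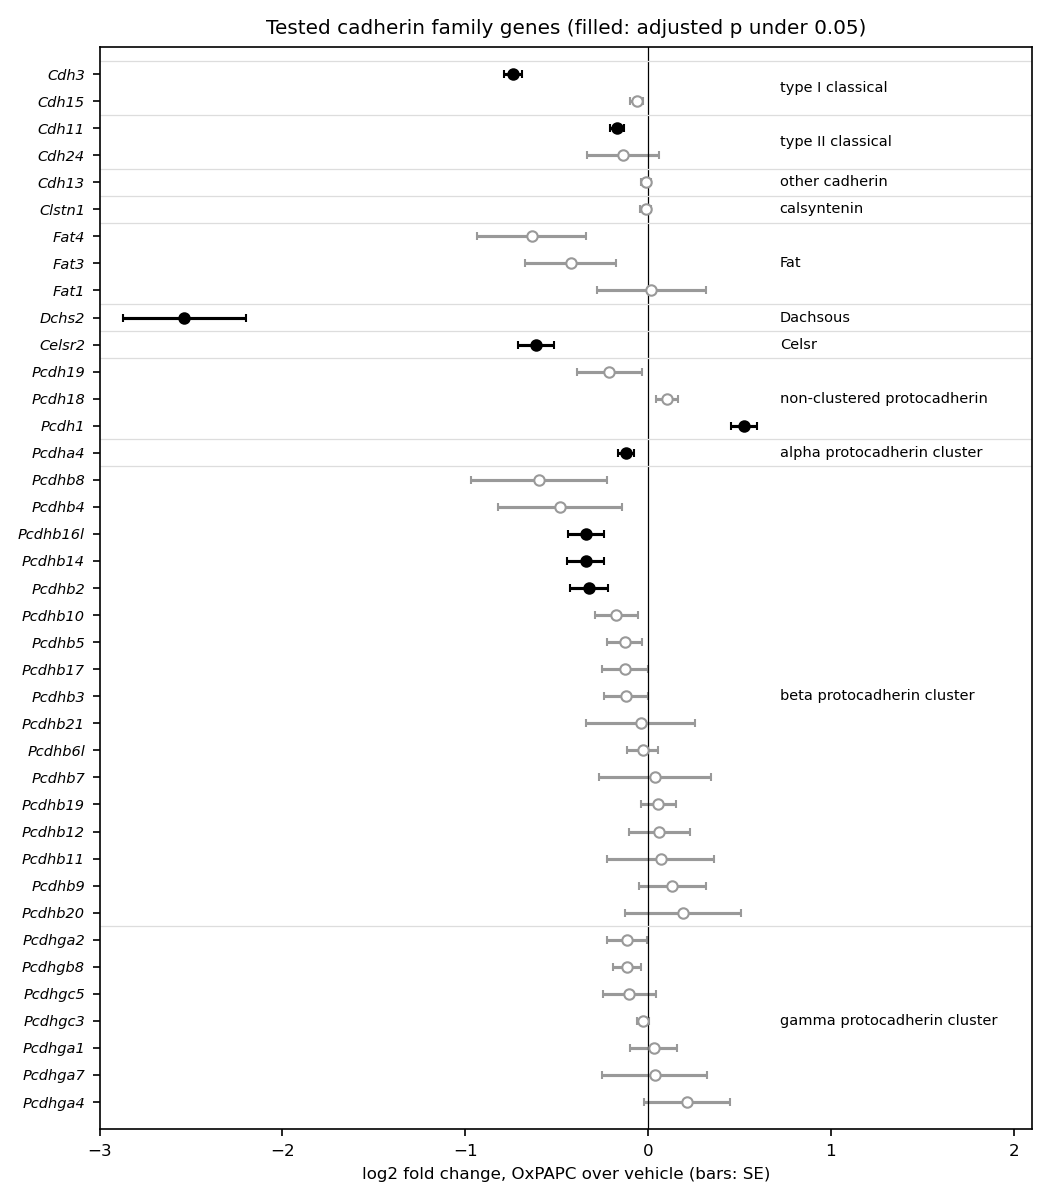
Log2 fold change (OxPAPC over vehicle, edgeR) of the 39 tested cadherin superfamily genes by subfamily; points are fitted values, bars are SE, and filled points have an adjusted p under 0.05. Dchs2 lies far to the left at -2.54, Pcdh1 is the filled point above 0, at 0.53, and the gamma protocadherins lie between -0.12 and 0.21.

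By level per length of gene (FPKM), Cdh13 led the superfamily with a mean of 143.4 FPKM over the 8 libraries. It was followed by Fat1 (90.1 FPKM), Clstn1 (74.9 FPKM), Cdh15 (53.5 FPKM), Pcdhgc3 (37.2 FPKM) and Cdh11 (19.01 FPKM). The 5 genes at the top held 77.1 to 82.9% of the summed FPKM of the superfamily in each library. Dchs2, with the largest change, was ranked 39 by mean level, at 0.115 FPKM. None of these top 5 genes was called, and the sixth, Cdh11, was lower by 0.17 on the log2 scale.

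Dchs2, a Dachsous cadherin of the family that binds Fat cadherins, had the largest fold change of the superfamily. It was a scarce transcript with vehicle, at 2.85 CPM in library 1, 2.78 in library 8, 2.21 in library 15 and 2.68 in library 22, and with OxPAPC it was at 1.00 CPM in library 2, 0.158 in library 9, 0.443 in library 16 and 0.2998 in library 23. These values rest on raw counts of 49, 60, 39 and 46 with vehicle and of 15, 3, 7 and 6 with OxPAPC. Every OxPAPC library lay below every vehicle library, and library 2 lay well above the other OxPAPC libraries. The mean fell from 2.63 ± 0.290 to 0.475 ± 0.368 CPM (SD, n = 4 each), to 18.04% of vehicle, with a log2 fold change of -2.54 ± 0.34 (SE; edgeR adjusted p = 3.08e-06). Without OxPAPC library 2 the log2 fold change was -3.14, and on the log2(FPKM + 1) scale, which compresses so low a gene, it was -0.21 and still passed the test. The other Dachsous gene, Dchs1, the known ligand of Fat4 in mouse, had only 8 counts in all: 1 in OxPAPC library 16, 1 in vehicle library 22, 6 in OxPAPC library 23 and 0 in the other 5 libraries.

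Celsr2, a flamingo cadherin of planar cell polarity that spans the membrane several times, was lower in every OxPAPC library. Vehicle libraries 1, 8, 15 and 22 held 27.5, 24.7, 21.7 and 22.6 CPM, and OxPAPC libraries 2, 9, 16 and 23 held 15.9, 17.4, 17.4 and 12.7 CPM. The groups did not overlap, and libraries 15 and 23 were the lowest of their groups. The mean fell from 24.1 ± 2.59 to 15.8 ± 2.22 CPM (SD, n = 4 each), to 65.6% of vehicle, with a log2 fold change of -0.61 ± 0.10 (SE; edgeR adjusted p = 9.77e-05). Its relatives were too scarce to test: Celsr3 had 34 counts with vehicle and 24 with OxPAPC, and Celsr1 had 5 and 8.

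Pcdh1, a protocadherin outside the clusters that is known from airway epithelium and as an entry receptor of New World hantaviruses, was the member that rose. Vehicle libraries 1, 8, 15 and 22 held 21.3, 19.6, 23.9 and 19.2 CPM, and OxPAPC libraries 2, 9, 16 and 23 held 29.8, 29.2, 29.6 and 32.0 CPM. All OxPAPC libraries were above all vehicle libraries. The mean rose from 21.0 ± 2.14 to 30.2 ± 1.24 CPM (SD, n = 4 each), to 143.7% of vehicle, with a log2 fold change of 0.53 ± 0.07 (SE; edgeR adjusted p = 3.16e-06). Of the other protocadherins outside the clusters, Pcdh18 had a log2 fold change of 0.10 and Pcdh19, whose human gene is linked to an X-linked epilepsy, one of -0.21; neither was called.

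**Figure D2:**
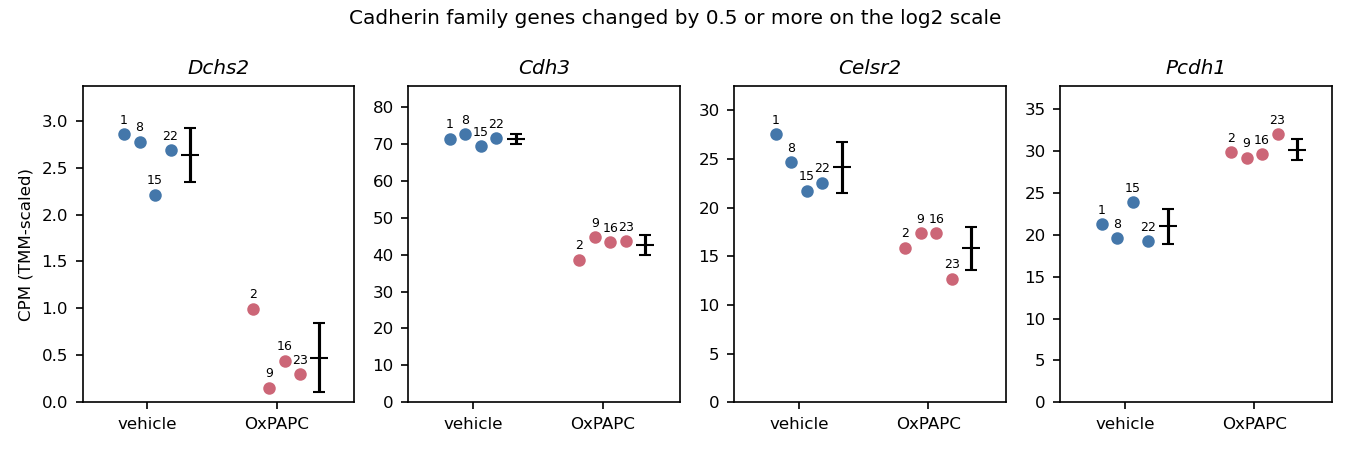
Level in CPM of the TMM-scaled library of the 4 called members with a log2 fold change of at least 0.5 in size; points are libraries with their numbers, and the black mark and bar are the mean ± SD of 4 libraries. Dchs2, Cdh3 and Celsr2 are lower and Pcdh1 is higher in every OxPAPC library than in every vehicle library.

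The 250 bases before the annotated start are given for Dchs2, Celsr2 and Pcdh1, the called members of largest fold change with an entry in the RefSeq promoter table (assembly GRCr8, which held 73 of the 90 members), so that the sequence can be read beside the change. They are written 5′ to 3′ on the gene's strand, and capitals mark matches, on either strand, to any of 4 motifs. TGACNNNGC is the core of the antioxidant response element, and TGANTCA is the site read by AP-1 factors. CACCTG is an E-box of the kind bound by the Snail and Zeb repressors of cadherin genes. The last motif, TATAAA, stands for the core promoter box of that name. Dchs2 lies at chr2:170775568-170775817 (plus strand), Celsr2 at chr2:198741383-198741632 (minus strand) and Pcdh1 at chr18:30290437-30290686 (minus strand).
Dchs2: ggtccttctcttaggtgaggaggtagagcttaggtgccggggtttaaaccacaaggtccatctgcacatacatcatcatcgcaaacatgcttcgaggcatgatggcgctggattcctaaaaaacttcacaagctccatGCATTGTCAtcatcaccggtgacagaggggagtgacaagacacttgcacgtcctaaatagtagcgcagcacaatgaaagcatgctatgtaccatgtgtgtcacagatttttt
Celsr2: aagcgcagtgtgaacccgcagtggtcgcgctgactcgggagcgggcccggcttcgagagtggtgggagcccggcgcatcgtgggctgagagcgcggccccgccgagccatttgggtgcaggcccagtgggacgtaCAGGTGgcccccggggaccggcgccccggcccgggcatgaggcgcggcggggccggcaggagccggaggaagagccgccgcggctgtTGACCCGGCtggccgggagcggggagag
Pcdh1: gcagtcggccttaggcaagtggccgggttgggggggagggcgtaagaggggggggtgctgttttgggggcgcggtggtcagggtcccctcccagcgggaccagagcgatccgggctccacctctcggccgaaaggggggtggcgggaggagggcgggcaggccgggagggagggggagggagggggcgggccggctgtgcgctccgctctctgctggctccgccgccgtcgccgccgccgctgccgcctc
The Dchs2 window held 1 match to TGACNNNGC, the Celsr2 window 1 match to TGACNNNGC and 1 to CACCTG, and the Pcdh1 window no match to the 4 motifs. Of 27457 promoters of the same length, 10.2% held TGACNNNGC, 6.36% TGANTCA, 15.6% CACCTG and 13.1% TATAAA. Of the 73 members with an entry, 7, 2, 8 and 8 held them in that order. GC content was 47.2% in the Dchs2 window, 76.4% in the Celsr2 window and 76.8% in the Pcdh1 window.

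Among the 18 classical cadherins, H9c2 cells expressed 4 and little else: Cdh15, Cdh11, Cdh24 and Cdh3 held 99.9% of the classical cadherin counts, and the other 14 genes had 84 counts together over the 8 libraries. N-cadherin (Cdh2), the classical cadherin of heart muscle, was nearly absent, with 11, 3, 3 and 5 counts in vehicle libraries 1, 8, 15 and 22 and 0, 6, 2 and 2 counts in OxPAPC libraries 2, 9, 16 and 23. E-cadherin (Cdh1) had 2 counts, Cdh6 28 with vehicle and 18 with OxPAPC, and VE-cadherin (Cdh5) none; a count of 0 over a group allows up to 3 counts, which is 0.0408 CPM with vehicle and 0.0429 CPM with OxPAPC.

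P-cadherin (Cdh3), a type I cadherin best known from placenta and basal epithelium, fell in every OxPAPC library. Vehicle libraries 1, 8, 15 and 22 held 71.3, 72.6, 69.4 and 71.5 CPM, and OxPAPC libraries 2, 9, 16 and 23 held 38.7, 44.6, 43.3 and 43.6 CPM. The vehicle libraries lay close together and far above the OxPAPC libraries, of which library 2 was the lowest. The mean fell from 71.2 ± 1.32 to 42.6 ± 2.66 CPM (SD, n = 4 each), to 59.8% of vehicle, with a log2 fold change of -0.74 ± 0.05 (SE; edgeR adjusted p = 4.07e-11). Cdh3 ends 48.3 kb before Cdh1 on the same strand of chromosome 19, in the coordinates of the deposited table, for which the sources used here give no genome build.

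Cdh11, the type II cadherin of mesenchymal and bone-forming cells, fell by less. Vehicle libraries 1, 8, 15 and 22 held 109.0, 110.6, 103.9 and 104.0 CPM, and OxPAPC libraries 2, 9, 16 and 23 held 92.5, 99.7, 93.5 and 94.0 CPM. The groups did not overlap, and the mean went from 106.9 ± 3.44 to 94.9 ± 3.23 CPM (SD, n = 4 each), 88.9% of vehicle, with a log2 fold change of -0.17 ± 0.04 (SE; edgeR adjusted p = 0.00143).

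M-cadherin (Cdh15), the classical cadherin of muscle precursors, was the leading classical cadherin per length and was not called. It was at 187.7, 188.4, 198.4 and 202.0 CPM in vehicle libraries 1, 8, 15 and 22 and at 189.7, 180.3, 181.0 and 193.4 CPM in OxPAPC libraries 2, 9, 16 and 23, and these ranges overlapped. The means were 194.1 ± 7.15 and 186.1 ± 6.48 CPM (SD, n = 4 each), with a log2 fold change of -0.06 ± 0.04 (SE; edgeR adjusted p = 0.203). Upper-quartile scaling, which moves the median of all tested genes to -0.04, gave -0.10 with an adjusted p of 0.0388. Cdh24, a type II cadherin, was at 69.2 ± 15.8 CPM with vehicle and 62.6 ± 10.8 CPM with OxPAPC (SD, n = 4 each), with a log2 fold change of -0.14 ± 0.20 (SE; edgeR adjusted p = 0.650).

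The make-up of the classical cadherin transcripts differed between the groups. By share of their summed FPKM, Cdh3 went from 17.7 ± 0.941% to 12.1 ± 0.672% and Cdh15 from 48.4 ± 1.5% to 53.1 ± 2.01% (SD, n = 4 each), and for both genes the shares of the groups did not overlap. Cdh11 held 17.9 ± 1.17% with vehicle and 18.2 ± 0.937% with OxPAPC, and Cdh24 15.96 ± 2.98% and 16.6 ± 2.13% (SD, n = 4 each), with overlapping libraries. Shares of a whole are tied to each other, so a lower share of 1 gene raises the others.

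**Figure D3:**
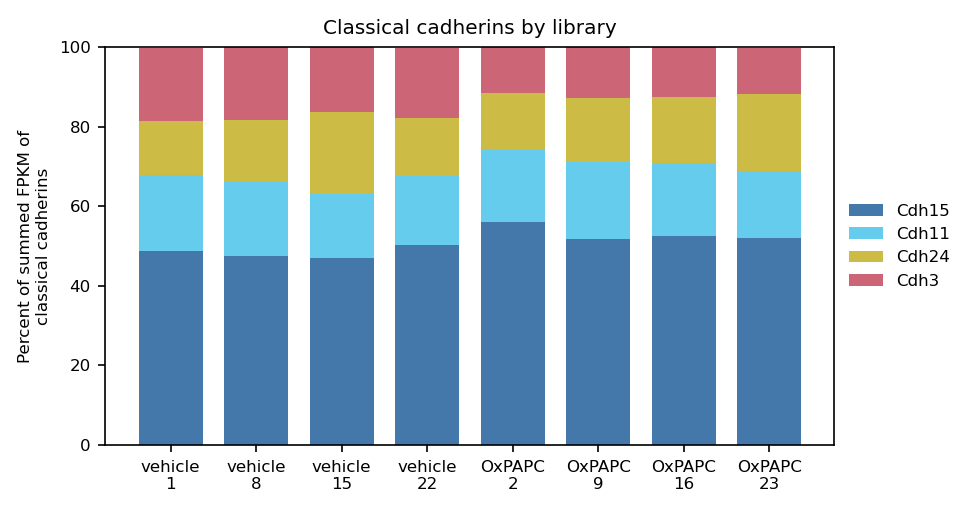
Percent of the summed FPKM of the 18 classical cadherins held by Cdh15, Cdh11, Cdh24 and Cdh3 in each library. The uppermost segment, Cdh3, is 16.3 to 18.5% in the vehicle libraries and 11.4 to 12.8% in the OxPAPC libraries.

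Of the other abundant members, Cdh13 and Clstn1 were not called. T-cadherin (Cdh13), which is anchored by a lipid in place of a cytoplasmic tail and binds adiponectin and LDL, was at 496.3, 485.3, 471.7 and 485.7 CPM in vehicle libraries 1, 8, 15 and 22. In OxPAPC libraries 2, 9, 16 and 23 it was at 490.1, 480.6, 468.8 and 487.0 CPM. The groups overlapped, with means of 484.8 ± 10.1 and 481.6 ± 9.43 CPM (SD, n = 4 each) and a log2 fold change of -0.01 ± 0.03 (SE; edgeR adjusted p = 0.827). Clstn1, a calsyntenin that links cargo to kinesin in neurons, was at 339.4, 338.5, 337.8 and 349.5 CPM in vehicle libraries 1, 8, 15 and 22 and at 345.1, 327.7, 336.3 and 344.3 CPM in OxPAPC libraries 2, 9, 16 and 23. The groups overlapped, with means of 341.3 ± 5.53 and 338.3 ± 8.15 CPM (SD, n = 4 each) and a log2 fold change of -0.01 ± 0.03 (SE; edgeR adjusted p = 0.777). A long noncoding gene on the opposite strand overlaps Clstn1 and held 0.770% as many counts. Cdh13 and Clstn1 were also among the steadiest genes, with 96.3% and 96.1% of the 9060 genes of at least 10 CPM varying more between libraries of a group. That ranking was not adjusted for level, and genes with more counts have less counting error.

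Of the members of at least 10 CPM, the Fat cadherins Fat1 and Fat4 varied most between libraries. Fat1, the giant cadherin that takes part in cell polarity and migration, held 33.3 to 51.3% of all superfamily counts in a library. It was at 1798.1, 1649.8, 891.9 and 1254.2 CPM in vehicle libraries 1, 8, 15 and 22 and at 1840.4, 1539.4, 1371.6 and 914.9 CPM in OxPAPC libraries 2, 9, 16 and 23. The groups overlapped almost wholly, and the libraries 15 and 23 were the lowest of their groups. The means were 1398.5 ± 408.3 and 1416.6 ± 386.6 CPM (SD, n = 4 each), with a log2 fold change of 0.02 ± 0.30 (SE; edgeR adjusted p = 0.973).

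Fat4, the receptor of Dachsous ligands in mammals, was likewise lowest in libraries 15 and 23 and had a lower mean with OxPAPC. It was at 91.7, 81.9, 46.2 and 64.1 CPM in vehicle libraries 1, 8, 15 and 22 and at 61.2, 46.7, 46.8 and 29.5 CPM in OxPAPC libraries 2, 9, 16 and 23. The ranges overlapped, and the means of 71.0 ± 20.1 and 46.1 ± 12.98 CPM (SD, n = 4 each) gave a log2 fold change of -0.64 ± 0.30 (SE; edgeR adjusted p = 0.160), which was not called. Fat3 was at 1.98 ± 0.273 CPM with vehicle and 1.502 ± 0.461 CPM with OxPAPC (SD, n = 4 each), with a log2 fold change of -0.42, not called, and Fat2 had 12 counts with vehicle and 3 with OxPAPC.

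Fat1 and Fat4 ranked 21 and 22 of the 9060 genes of at least 10 CPM by spread between libraries of a group, with SDs of 0.44 on the log2 scale against a median of 0.08. Cdh24 ranked 94, and in the opposite order, at 91.7 CPM in vehicle library 15 and 77.4 CPM in OxPAPC library 23, the highest of each group. Long transcripts outside the superfamily were on the median also lower in these libraries, but by much less than Fat1 and Fat4. Over 190 protein-coding genes of at least 15 kb and 10 CPM, the median log2 deviation from the group mean was -0.11 in vehicle library 15 and -0.10 in OxPAPC library 23. It was 0.08 in vehicle libraries 1 and 8, -0.02 in vehicle library 22, and 0.07, 0.03 and 0.01 in OxPAPC libraries 2, 9 and 16. What set these libraries apart was not tested.

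Counted against Fat1 in the same library, a ratio that was not planned, Fat4 separated the groups. Fat4 counts were 5.10, 4.97, 5.17 and 5.11% of Fat1 counts in vehicle libraries 1, 8, 15 and 22 and 3.33, 3.04, 3.42 and 3.22% in OxPAPC libraries 2, 9, 16 and 23. The vehicle values lay within a narrow band above all OxPAPC values, with means of 5.09 ± 0.0871% and 3.25 ± 0.163% (SD, n = 4 each), a log2 ratio of -0.65. The same ratio overlapped for Fat3, at 0.120 to 0.178% with vehicle and 0.0614 to 0.142% with OxPAPC, but not for Dchs2. Without any ratio, 32.4% of all tested genes did not overlap in CPM, which is no background for a ratio to Fat1. Fat1 was low in the same libraries as Fat4, so dividing by it narrowed the spread within groups, and the separation was no check. With the deviation of the 190 long genes as a covariate, a fit chosen after these values were seen, Fat4 fell by 0.58 ± 0.05 on the log2 scale (SE; edgeR adjusted p = 8.13e-14) and Fat1 was at 0.06 ± 0.03 (adjusted p = 0.0807). That covariate was taken from the same libraries and measured from each group's own mean. It could narrow the spread within groups but hardly shift a fold change, so the fall that remained was no check. Without libraries 15 and 23 and with no covariate, Fat4 was at -0.63 with an edgeR adjusted p of 0.0759. Under the same covariate fit Dchs2 fell by 2.51, Celsr2 by 0.59 and Fat3, not called, was at -0.40.

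**Figure D4:**
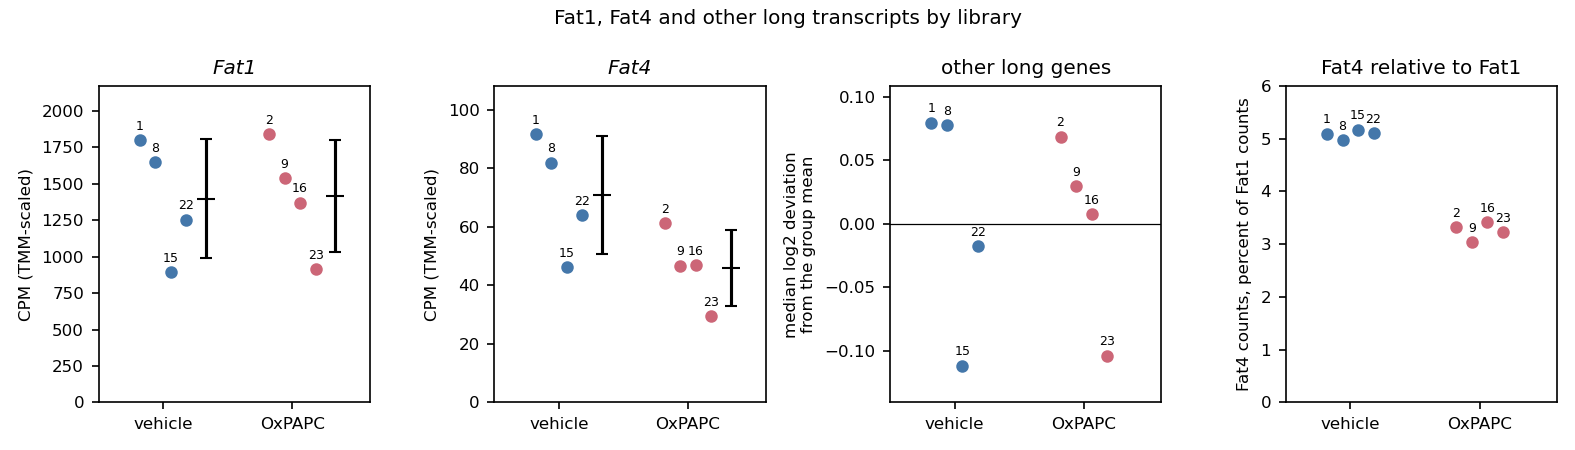
Fat1 and Fat4 levels in CPM (points: libraries with their numbers; black mark and bar: mean ± SD of 4), the median log2 deviation of 190 other genes of at least 15 kb from their group mean, and Fat4 counts as a percent of Fat1 counts. Libraries 15 and 23 are the lowest of their groups in the first 3 panels, whereas in the last the vehicle libraries sit at 4.97 to 5.17% and the OxPAPC libraries at 3.04 to 3.42%.

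The clustered protocadherins, with 36 members, were measured as 3 sums, because their genes share exons or are near copies and reads may be split among them. Of the 15 gamma genes, 12 have in the deposited table the same annotated end, and the row named Pcdha4 is 41.2 kb long. The 19 beta genes summed to 99.2 ± 3.02 CPM with vehicle and 90.5 ± 2.61 CPM with OxPAPC, the 15 gamma genes to 220.6 ± 4.41 and 214.8 ± 7.65 CPM, and the 2 alpha genes to 79.9 ± 3.41 and 73.6 ± 2.50 CPM (SD, n = 4 each). The sum of all 3 was 404.0, 403.9, 387.9 and 403.0 CPM in vehicle libraries 1, 8, 15 and 22 and 392.3, 371.1, 372.7 and 379.8 CPM in OxPAPC libraries 2, 9, 16 and 23. The groups overlapped in that sum, through vehicle library 15 and OxPAPC library 2, and its log2 ratio was -0.08. The beta sum did not overlap, lying at 96.6 to 102.7 CPM with vehicle and 86.9 to 93.1 CPM with OxPAPC.

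Of 17 tested beta genes, 3 were lower and none was higher, where 16.4% of all tested genes were called lower and 17.9% higher, so the count of lower genes was near the background. Pcdhb16l was at 9.30 ± 0.319 CPM with vehicle and 7.35 ± 0.294 with OxPAPC (log2 fold change -0.34 ± 0.10 SE, edgeR adjusted p = 0.0101), and Pcdhb14 was at 9.11 ± 0.383 and 7.20 ± 0.261 CPM (-0.34 ± 0.10, adjusted p = 0.0109). Pcdhb2 was at 9.80 ± 0.623 and 7.87 ± 0.657 CPM (-0.32 ± 0.10, edgeR adjusted p = 0.0176). In each of these 3 genes every OxPAPC library lay below every vehicle library. Pcdhb10 also did not overlap but was not called, at -0.17. That made 4 of 17 tested beta genes without overlap, where 32.4% of all tested genes did not overlap. The other beta genes were not called, and their log2 fold changes were -0.60 for Pcdhb8, -0.48 for Pcdhb4, -0.13 for Pcdhb5, -0.13 for Pcdhb17, -0.12 for Pcdhb3, -0.04 for Pcdhb21 and -0.03 for Pcdhb6l. Those above 0 were Pcdhb7 at 0.04, Pcdhb19 and Pcdhb12 at 0.06, Pcdhb11 at 0.07, Pcdhb9 at 0.13 and Pcdhb20 at 0.19.

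The 7 tested gamma genes were not called. Pcdhgc3 made up most of the cluster, at 175.8, 172.3, 169.7 and 173.5 CPM in vehicle libraries 1, 8, 15 and 22 and 174.0, 163.3, 164.4 and 176.5 CPM in OxPAPC libraries 2, 9, 16 and 23. The groups overlapped, with means of 172.9 ± 2.57 and 169.5 ± 6.70 CPM (SD, n = 4 each) and a log2 fold change of -0.03 ± 0.03 (SE; edgeR adjusted p = 0.581). The others had log2 fold changes of -0.12 for Pcdhga2, -0.11 for Pcdhgb8, -0.10 for Pcdhgc5, 0.03 for Pcdhga1, 0.04 for Pcdhga7 and 0.21 for Pcdhga4. In the alpha cluster Pcdha4 was lower by 0.12 ± 0.04 on the log2 scale (edgeR adjusted p = 0.0316). That call was lost without vehicle library 8 (adjusted p = 0.1002), vehicle library 22 (0.117), OxPAPC library 9 (0.119) or OxPAPC library 16 (0.0588). The call of Pcdhb2 was lost without vehicle library 22 (adjusted p = 0.0502) or OxPAPC library 9 (0.0570).

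Members below the filter were read as raw counts and not tested. Pcdh20, a protocadherin outside the clusters, had 9, 7, 5 and 0 counts in vehicle libraries 1, 8, 15 and 22 and 2, 0, 1 and 0 in OxPAPC libraries 2, 9, 16 and 23. Its vehicle libraries were uneven and overlapped the OxPAPC libraries at 0. Of the cadherins of the inner ear hair cell link, Pcdh15 had 38 counts with vehicle and 27 with OxPAPC, and Cdh23 had 16 and 11, while the intestinal cadherin Cdh17 had 9 and 18. In the beta cluster, Pcdhb6 had 41 counts with vehicle and 28 with OxPAPC. In the gamma cluster, in the same order, the counts were 30 and 37 for Pcdhga3, 27 and 23 for Pcdhga11, 23 and 11 for Pcdhga12, 16 and 12 for Pcdhga9, 16 and 10 for Pcdhga5, 13 and 7 for Pcdhga8, 10 and 5 for Pcdhgb7, and 9 and 4 for Pcdhga10. A further 15 members had 1 to 9 counts over all libraries. The 7 desmosomal cadherins were among the scarcest, with 4 at 1 to 9 counts and 3 at 0.

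The partners of cadherins were followed in 6 lists of 67 genes, of which 56 were tested, and 11 were higher and 11 lower, against the 17.9% and 16.4% of all tested genes. That even balance depended on the processing: 9 were higher and 18 lower with upper-quartile factors, 17 were lower with no filter beyond 1 count, and 6 were higher on the log2(FPKM + 1) scale with no filter. Among catenins and their binding proteins, 2 of 10 tested genes were higher and 2 lower. The actin-linking alpha-catenin Ctnna1 was higher by 0.09 ± 0.03 on the log2 scale (SE; edgeR adjusted p = 0.0208) and Pkp4, an armadillo protein related to p120, by 0.20. Plakoglobin (Jup) fell by 0.17 ± 0.04 (SE; edgeR adjusted p = 0.00331) and p120-catenin (Ctnnd1), which holds cadherins at the surface, by 0.09 (adjusted p = 0.0417). Beta-catenin (Ctnnb1) was at -0.06 and was not called (edgeR adjusted p = 0.125).

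Of 13 tested genes of cadherin shedding and turnover, 5 were higher and none was lower. Over all tested genes, 17.9% were called higher and 16.4% lower. Of the calls over all genes 52.3% were upwards, against 40.2% with upper-quartile factors. Adam17, a sheddase, went from 58.9 ± 3.00 to 70.7 ± 1.61 CPM (log2 fold change 0.26 ± 0.04 SE, edgeR adjusted p = 6.90e-05). Adam10, the main sheddase of N- and E-cadherin, was at 0.00 and was not called. The median over the 13 genes was 0.14, beside 0.00 over all tested genes.

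Of 13 tested genes of planar polarity and of Fat and Dachsous signalling, 1 was higher and 3 were lower. Over all tested genes the shares were 17.9% and 16.4%. Fjx1, the homologue of the fly kinase that phosphorylates the cadherin domains of Fat and Dachsous, rose from 31.5 ± 1.599 to 45.0 ± 3.31 CPM (log2 fold change 0.51 ± 0.06 SE, edgeR adjusted p = 4.30e-07). Of the planar polarity genes, the receptor Fzd6 fell by 0.32 and Prickle1, a cytoplasmic partner of Vangl proteins, by 0.29 on the log2 scale. Dchs2 was lower and Fjx1 higher, each with no overlap between groups, as in 32.4% of all tested genes. Of the 13 tested genes of the list, 9 were not called, and a link between Dchs2 and Fjx1 was not tested.

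Of 9 tested nectin and junction adaptor genes, 2 were higher and 3 lower, beside 17.9% and 16.4% of all tested genes. Nectin3, an immunoglobulin-like adhesion protein, rose from 122.6 ± 2.44 to 157.3 ± 4.24 CPM (0.36 ± 0.03 SE, edgeR adjusted p = 2.26e-08) and the polarity protein gene Pard3 by 0.19, while Epb41l5, which promotes cadherin uptake in mouse cells, fell by 0.35 and the scaffold gene Magi1 by 0.19. Of 9 tested repressors of cadherin genes, Twist1 rose by 0.35, Zeb1 fell by 0.29 and Tcf3 by 0.19, and the other 6 were not called. Of the desmosome partners only Pkp1 and Pkp2 were tested: Pkp2 fell by 0.54 on the log2 scale (edgeR adjusted p = 0.0104) and Pkp1 was at 0.00, not called.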

How the data were processed

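Messenger RNA was sequenced from 4 vehicle and 4 OxPAPC samples of H9c2 cells. The authors deposited whole-number read counts per gene, not normalized, and FPKM values for the same genes. The tools were featureCounts 1.5.0-p3, HISAT2 2.0.5 and StringTie 1.3.3b per the submitters' processing notes, with no role stated and no genome build named. Per the labels' protocols libraries were directional and non-directional, so the use of strand in counting is unknown and overlapping genes may share reads. The deposited FPKM values equalled counts per kb and per M total counts times 0.987 to 1.02. In each file 1 emptied line was skipped.

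Counts were tested with edgeR 4.0.16 (R 4.3.3; filterByExpr with a minimum of 10 counts and 15 in total, TMM, robust quasi-likelihood F test) across all genes, with Benjamini-Hochberg adjustment and a threshold of 0.05. CPM are per M counts of the TMM-scaled library, and the SE is the absolute log2 fold change over the square root of F. The edgeR, DESeq2 and voom fits were tested on simulated counts. These held no difference between libraries in long transcripts, so they were no test of how the covariate fit treats libraries 15 and 23. Each library was counted as 1 replicate. Within groups, chi-square per degree of freedom was at least 2.23 for each pair of libraries. That is more than counting error but cannot show that the cultures were separate. For a gene at 0 in a group, 3 counts over that group served as the floor, which covers counting error only. Full values were given for called members with a log2 fold change of at least 0.5, the 6 members of highest FPKM, and Cdh2, Cdh11, Cdh15, Fat1 and Dchs1 (Dchs1 and Cdh2 as raw counts), and the 2 largest called rises and falls were named per partner list, except 1 that is not reported here. Adam10 and the levels of Cdh24, Fat3 and Fat4 were added after their values were seen. Alternatives were other scalings and filters, DESeq2 1.42.0, limma 3.58.1 on voom values and on log2(FPKM + 1) and log2(FPKM + 0.1), a gene-length offset and each library left out. Leaving out libraries 15 and 23 together and the long-transcript covariate were added after seeing the data. The members and lists were chosen with earlier results of these data known. The gene identifiers of the RefSeq GRCr8 table gave chromosomes for 89 of the 90 members.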

Additional observations from a re-analysis of the deposited data

Results flagged for a closer look

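Each of the 39 tested members was checked for a library standing apart from the other 3 of its group, in 78 groups, and 2 were found. Clstn1 was at 349.5 CPM in vehicle library 22, above 337.8 to 339.4 CPM in the other vehicle libraries. Pcdhb8 was at 0.453 CPM in vehicle library 15, below 0.932 to 0.972 CPM in the others, a difference of a few counts. Chance alone marks about 1 in 20 groups by this check, and neither gene was called.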

How the results depend on the processing

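No paired analysis was made, because the groups share no replicate numbers. The labels do not say whether neighbouring numbers, such as 1 and 2, mark pairs. The count of 1 member higher and 8 lower stayed within 1.5 times under each of the 21 alternatives. Of 816 alternative values of single members, 12 lost a call, 2 gained one and none reversed with a call, while 41 values near 0 changed sign with no call before or after. The lost calls were those of Pcdha4, also lost with DESeq2 (adjusted p = 0.0566), the 3 FPKM fits (0.198 to 0.252) and the gene-length offset (0.546), and of Pcdhb2, also lost without libraries 15 and 23 (0.0871). Dchs2 ranged from -3.14 to -0.21 with adjusted p from 7.37e-15 to 0.0042, and Fat4 from -0.80 to -0.47 with adjusted p from 8.13e-14 to 0.315. Fat4 was called only in the long-transcript covariate fit, which gave the 8.13e-14. Celsr2 was at -0.41 on the log2(FPKM + 1) scale and Pcdh1 at 0.35. Partner genes lower were 18 with upper-quartile factors and 17 with no filter beyond 1 count, and partner genes higher were 6 on the log2(FPKM + 1) scale with no filter; the cause was not tested. Scaling moved the balance of calls over all genes: of the called genes 52.3% were higher, but 40.2% with upper-quartile factors. With no filter Pcdh20 was also called (-2.53, adjusted p = 0.0399), on 24 counts. The share differences of Cdh11 and Cdh24 among classical cadherins, 0.371 and 0.556 percentage points of counts, changed sign without single libraries (-0.231 to 0.903 and -0.372 to 1.96). Depth limits the members under the filter, which were not tested.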
